A study of Mus musculus with 12 samples.

Results

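The genes of mitochondrial oxidative phosphorylation were followed across 4 mouse leukaemia cell lines. A gene was taken when its symbol in the platform annotation began with Nduf, Uqcr, Atp5, Cox4, Cox5, Cox6, Cox7 or Cox8, or was Sdha, Sdhb, Sdhc, Sdhd or Cycs. Each gene was represented by its probe set with 1 symbol and the highest mean log2(intensity + 1) over all 12 arrays. The rule gave 91 of the 18193 genes measured in this way. They comprised 6 core and 28 accessory genes of complex I, 8 complex I assembly factors, 4 genes of complex II, 8 of complex III, cytochrome c, 10 ubiquitous and 8 tissue-restricted genes of complex IV, the supercomplex factor Cox7a2l, and 5 F1 and 12 stalk and membrane genes of ATP synthase. The assembly factors entered through their Ndufaf symbols and are not subunits. A further 8 symbols, among them Ndufa11 and Ndufs6, occurred only on probe sets shared by several genes and were left out. The annotation used older ATP synthase names, such as Atp5b and Atp5j2, which are kept here.

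The lines come from leukaemias of BXH-2 mice, an inbred strain prone to myeloid leukaemia caused by a replicating retrovirus. B117P and B140P are parental acute myeloid leukaemia lines that are sensitive to Ara-C (cytarabine), a cytidine analogue that blocks DNA synthesis after the cell has phosphorylated it. From each parent 1 line with high resistance was derived, B117H from B117P and B140H from B140P, and the labels do not state whether either is a clone. Each line has 3 arrays, marked A, B and C. The labels give all 4 lines the same text on exposure to rising Ara-C concentrations and on passage in drug-free medium, so that text does not separate parental from resistant cells. Whether the 3 arrays of a line stand for separate cultures is not said, and the p-values reflect the spread among these arrays alone, and that spread may be technical. With 1 resistant line per parent, a change seen in 1 pair describes that pair of lines.

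Oxidative phosphorylation couples the oxidation of NADH and succinate to ATP synthesis across the inner mitochondrial membrane. Complexes I and II pass electrons to ubiquinone, complex III passes them on to cytochrome c, and complex IV transfers them to oxygen. Complexes I, III and IV pump protons, and ATP synthase uses the returning protons to make ATP. Most subunits are encoded in the nucleus, while a small set, absent from the rule used here, is encoded in mitochondrial DNA. Leukaemic blasts rely on this pathway to varying degrees, and dihydroorotate dehydrogenase, an enzyme of pyrimidine synthesis, delivers its electrons to the same ubiquinone pool.

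Promoters of such genes often carry binding motifs of the nuclear respiratory factor NRF1 and of the ETS-family factor GABP. RefSeq promoter windows (build GRCm38.p6, 250 bases before to 50 after a start) were matched for 75 of the 91 genes, in 80 windows. On either strand, the NRF1 motif, whose letters are the 10-base runs of capitals in the sequences of Sdhd and Ndufs5, occurred in 22.5% of these windows and in 4.60% of all 32851 windows. The ETS motif CCGGAAG occurred in 23.8% and 8.86%, the YY1 motif CAAGATGGC in 7.50% and 1.24%, and the oestrogen-related receptor motif TCAAGGTCA in 2.50% and 0.423%. A match is a description of letters and not of a bound site. The 250 bases before the start of 4 genes are shown because Ndufb8 and Uqcrfs1 had the lowest adjusted p-values between a resistant line and its parent, and Sdhd and Ndufs5 differed in opposite directions between the parental lines. All lie on the minus strand, at chr19:44555443-44555692 (Ndufb8), chr13:30545317-30545566 (Uqcrfs1), chr9:50603850-50604099 (Sdhd) and chr4:123718187-123718436 (Ndufs5). Capitals mark the NRF1 and ETS motifs, which do not overlap in these stretches.
Ndufb8: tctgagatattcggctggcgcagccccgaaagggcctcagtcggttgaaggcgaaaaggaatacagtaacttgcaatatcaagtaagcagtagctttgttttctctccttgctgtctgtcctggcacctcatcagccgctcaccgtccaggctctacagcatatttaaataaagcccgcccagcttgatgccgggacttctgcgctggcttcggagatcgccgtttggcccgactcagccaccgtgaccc
Uqcrfs1: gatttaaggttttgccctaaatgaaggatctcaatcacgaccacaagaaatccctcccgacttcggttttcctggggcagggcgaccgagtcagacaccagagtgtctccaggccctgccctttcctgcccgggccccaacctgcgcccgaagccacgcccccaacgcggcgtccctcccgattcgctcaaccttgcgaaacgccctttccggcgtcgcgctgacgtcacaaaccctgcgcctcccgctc
Sdhd: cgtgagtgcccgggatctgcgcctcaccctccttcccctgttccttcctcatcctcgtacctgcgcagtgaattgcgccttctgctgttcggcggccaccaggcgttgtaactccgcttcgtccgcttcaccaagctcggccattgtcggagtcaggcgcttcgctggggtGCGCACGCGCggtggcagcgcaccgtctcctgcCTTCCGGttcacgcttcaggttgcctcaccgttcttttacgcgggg
Ndufs5: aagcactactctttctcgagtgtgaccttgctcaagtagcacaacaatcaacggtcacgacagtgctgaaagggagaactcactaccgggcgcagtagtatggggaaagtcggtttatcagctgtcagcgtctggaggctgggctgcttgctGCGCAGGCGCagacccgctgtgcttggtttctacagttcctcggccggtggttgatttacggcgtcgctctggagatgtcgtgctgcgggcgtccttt
In Sdhd the NRF1 motif began 79 bases and the ETS motif 46 bases before the start, and in Ndufs5 the NRF1 motif began 98 bases before it. The Ndufb8 and Uqcrfs1 windows held neither of these letter strings. Of the 5 genes called lower in B117H, 0 had the NRF1 motif and 3 had the ETS motif in their 6 windows. For genes called between the parental lines, the NRF1 motif occurred in 1 of 11 windows of those higher in B140P. It occurred in 1 of 6 windows of those lower, and these were the Sdhd and Ndufs5 windows shown. The ETS motif occurred in 4 of the 11 and 1 of the 6. These counts are too few to compare with the other members.

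The median intensity of an array, on the linear scale of the deposited values, ranged from 118 to 131. The B array of the B140H line differed from the rest: its lower quartile was 58.6, and those of the other arrays were 50.8 to 53.7. On that array the members deviated from their mean over all arrays of the series by a median of 0.197 log2 units and all genes by 0.131. These deviations include any difference of the B140H line itself. The arrays carry no read depth, and their number limits the precision: the median half-width of a member's 95% interval was 0.22 log2 units in each pair. Of the members, 87 lay at or above the median log2 level of all probe sets, 6.95, and the other 4 (Ndufb4, Cox6b2, Cox7b2 and Cox8b) lay below it. No array value was 0, and the lowest was 7.65. In RNA from whole cultures, fewer cells of a type and less RNA per cell cannot be told apart.

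B117H was compared with B117P to find which of these genes differed after resistance arose in this lineage. Ndufb8, an accessory subunit of the complex I membrane arm, fell 2.43-fold, and Uqcrfs1, the Rieske iron-sulphur protein of complex III, fell 1.80-fold. A further 3 genes fell by less: Atp5md, a small subunit of the ATP synthase membrane part, Atp5j, the coupling factor of its peripheral stalk, and Ndufaf1, a complex I assembly factor. Cox6a2, the heart and skeletal muscle isoform of a complex IV subunit, rose 2.04-fold. All other members, including all of complex II, cytochrome c and the 5 genes of the F1 part of ATP synthase, were not called in this pair. In complex II, 1 gene, Sdhb, had an unadjusted p under 0.05 (0.22, limma adjusted p = 0.250).

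By limma, 1 member was called higher and 5 were called lower at an adjusted p under 0.05, against 4.73% and 4.68% of all genes. The 6 calls are 6.59% of the members, and 9.41% of all genes were called in either direction. The median member change was 0.02 on the log2 scale, against -0.01 over all genes. All B117H arrays exceeded all B117P arrays for 12 members (13.2%, against 13.7% of all genes), and all were below for 13 (14.3%, against 12.5%). For 87 members the 95% interval of the change lay within 2-fold in either direction, and for 83 within 1.5-fold (91.2%, against 82.5% of all genes). The 4 members not bounded within 2-fold were Cox6a2, Cox7a1, Ndufb8 and Uqcrfs1. Without B117H C, B117P B or B117P C, 3 members were called lower, and without B117H C or B117P A, 0 were called higher by limma.

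In complex I, Ndufb8 measured 17408, 14310 and 14894 intensity units on arrays A, B and C of B117P and 6507, 6392 and 6242 in B117H. B140P gave 6243, 6304 and 6309, and B140H gave 6313, 6808 and 6152. B117P was therefore the line that stood apart, and the 9 arrays of the other lines lay between 6152 and 6808. The log2 change in B117H was -1.28 (SE 0.09, limma adjusted p = 2.98e-06), and the gene's second probe set changed by -2.44 (adjusted p = 3.21e-05). Ndufaf1, which acts early in complex I assembly, measured 948, 982 and 911 intensity units in B117P and 765, 787 and 747 in B117H. The arrays did not overlap, and the change was -0.30 (SE 0.08, limma adjusted p = 0.0351). This call was lost without any 1 array of the B117 lines (adjusted p = 0.0650 to 0.132) or of B140P (0.0506 to 0.0596), when arrays were centred on their medians (0.0504), or in a fit of this pair's arrays alone (0.0850). The 6 core genes of complex I changed by -0.08 to 0.15. By limma 0 of them were called, and 0 had an unadjusted p under 0.05.

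In complex III, Uqcrfs1 carries the iron-sulphur cluster that takes electrons from ubiquinol. It measured 5579, 5671 and 5707 intensity units in B117P and 3353, 3113 and 2969 in B117H. In B140P it measured 6689, 6977 and 6713, and in B140H 7682, 7863 and 6946. B117H was the lowest of the 4 lines, with no overlap with any other line. The change in B117H was -0.85 (SE 0.09, limma adjusted p = 4.75e-05). The other 7 members of complex III changed by -0.29 to 0.21 and were not called.

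In ATP synthase, Atp5md measured 4079, 4493 and 3844 intensity units in B117P and 2829, 2825 and 2979 in B117H, without overlap. Its change was -0.52 (SE 0.10, limma adjusted p = 0.00418). Atp5j measured 11064, 12089 and 11143 in B117P and 8991, 9058 and 7825 in B117H, also without overlap, a change of -0.41 (SE 0.10, limma adjusted p = 0.0211). The Atp5j call was lost without B117P B (adjusted p = 0.0863), B117P C (0.0557) or B117H C (0.108). Atp5o, the stalk subunit that holds the F1 head, changed by -0.34 and was not called (limma adjusted p = 0.0865), except with the letter as a block (0.0266). Between B117P and B117H, array deviations correlated for A and C (r = 0.555 and 0.392) but not for B (0.0278). The letters were therefore not taken to pair these 2 lines. The 5 F1 genes changed by 0.02 to 0.17, and 0 of them had an unadjusted p under 0.05. The called genes of this complex all belong to its stalk and membrane part, and a difference between the parts was not tested.

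In complex IV, Cox6a2 measured 1015, 1221 and 1226 intensity units in B117P and 2044, 1982 and 3166 in B117H. It measured 204, 193 and 282 in B140P and 182, 192 and 329 in B140H, so its levels separated the B117 from the B140 lines as well as B117H from B117P. The change in B117H was 1.03 (SE 0.24, limma adjusted p = 0.0174), and the second probe set of the gene changed by 1.14 (adjusted p = 0.0214). The call was lost without B117P A (adjusted p = 0.0684) or B117H C (0.0855), the array with the highest value. The 10 ubiquitous complex IV genes changed by -0.34 to 0.19. By limma 0 were called, and 0 had an unadjusted p under 0.05.

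**Figure D1:**
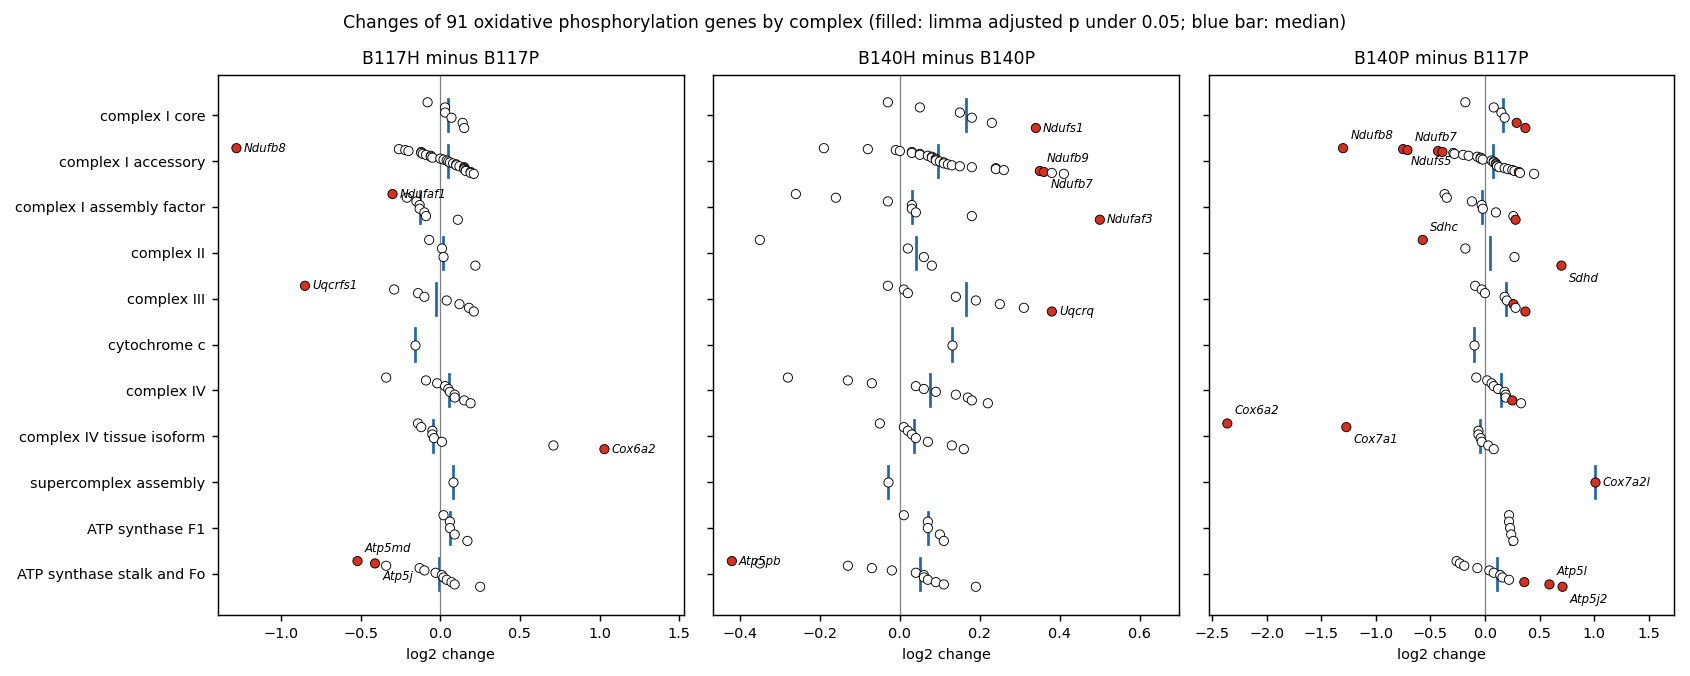
Log2 changes of the 91 genes, 1 point per gene, in rows by complex, for B117H minus B117P, B140H minus B140P and B140P minus B117P; filled points had a limma adjusted p under 0.05 and blue bars mark the row medians. Most points lie near 0 in the resistant lines, with Ndufb8 at -1.28 and Cox6a2 at 1.03 the extremes of the B117 panel. The horizontal scales differ between panels.

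The same was asked of the other lineage by comparing B140H with B140P. Here 5 of the 6 called changes were upward. Ndufaf3, a complex I assembly factor, rose 1.42-fold. Ndufb7 and Ndufb9, accessory subunits of the complex I membrane arm, rose 1.28-fold and 1.27-fold. Ndufs1, the core subunit with several iron-sulphur clusters, rose 1.27-fold, and Uqcrq, a small subunit of complex III, rose 1.31-fold. Atp5pb, the b subunit of the ATP synthase stalk, fell 1.34-fold.

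By limma, 5 members were called higher and 1 was called lower, against 2.81% and 3.75% of all genes. The share called in either direction, 6.59%, was near that of all genes, 6.56%. The median member change was 0.07, against 0.05 over all genes, and 72 members (79.1%) were estimated above 0, against 62.7% of all genes. All B140H arrays exceeded all B140P arrays for 26 members (28.6%, against 13.7% of all genes), and all were below for 5 (5.49%, against 10%). Without array B140H B, 57 members (62.6%) were estimated above 0, against 47.9% of all genes, and the median change was 0.04, against -0.01. Without that array 0 members were called higher by limma and 2 lower. Without B140P B or C, 0 were also called higher, without B140H A or B140P A 1, without B140H C, B117H A or B117H B 2, and without B117P C 3. Without B140H A, B140P A or B140P B, 0 were called lower. With arrays centred on their medians, 1 member was called higher and 2 lower. With only the arrays of the B140 lines, 0 were called in either direction by limma, against 1.52% of all genes called higher and 2.23% lower. The adjusted p of the 6 genes named above then ran from 0.0739 (Atp5pb) to 0.164 (Ndufs1). In that fit 14 members had an unadjusted p under 0.05, 10 above 0 and 4 below. The share of all genes at that threshold was not counted, so this count has no background to be read against. In the fit of all 12 arrays, 19.8% of the members and 18.6% of all genes had an unadjusted p under 0.05.

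The letters of B140P and B140H paired these arrays, as their deviations correlated for every letter. With the letter as a replicate block in the fit of all 12 arrays, 7 members were called higher and 3 lower in B140H. That fit is not confined to the B140 lines. Its letter terms also draw on B117P and B117H, whose deviations did not correlate for B. Beside the 6 genes above, the block added Ndufb3 (0.41, limma adjusted p = 0.0133), Ndufs5 (0.38, adjusted p = 0.0288), Atp5l (-0.35, adjusted p = 0.0236) and Sdhd (-0.35, adjusted p = 0.0466). Of all genes, 10% were called in this fit. For all 91 members the 95% interval of the unblocked change in B140H lay within 2-fold, and for 82 within 1.5-fold (90.1%, against 83.7% of all genes).

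In complex I, Ndufaf3 measured 839, 769 and 675 intensity units in B140P and 1080, 1169 and 983 in B140H, a change of 0.50 (SE 0.12, limma adjusted p = 0.0295). Ndufb7 measured 4084, 4341 and 4077 in B140P and 5189, 5577 and 5295 in B140H, and both of its probe sets rose (0.36 and 0.41). Its adjusted p by limma was 0.0335. Ndufb9 measured 5148, 5390 and 5289 in B140P and 6648, 7086 and 6405 in B140H, a change of 0.35 (SE 0.08, limma adjusted p = 0.0324). A second of its 3 probe sets rose by 0.39, and the third changed by 0.25 and was not called. Ndufs1 measured 2044, 2279 and 2320 in B140P and 2679, 2910 and 2816 in B140H, a change of 0.34 (SE 0.09, limma adjusted p = 0.0412). In each of these 4 genes all B140H arrays exceeded all B140P arrays.

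These complex I calls were near the threshold. The Ndufaf3 call was lost without B140H A (adjusted p = 0.0797), B140H B (0.0975), B140P B (0.0905) or B140P C (0.138). The Ndufb7 call was lost without any 1 array of the B140 lines (0.0638 to 0.128) or without B117H A (0.0531). The Ndufb9 call was lost without any array of the B140 lines except B140H C (0.0767 to 0.129) or without B117H B (0.0530). The Ndufs1 call was lost without any 1 array of the B140 lines (0.0638 to 0.191) or of B117H (0.0595 to 0.0661), or without B117P C (0.0615). With arrays centred on their medians, adjusted p was 0.0719 for Ndufb7, 0.0562 for Ndufb9 and 0.0825 for Ndufs1.

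In complex III, Uqcrq measured 4828, 5376 and 4978 intensity units in B140P and 5995, 7114 and 6747 in B140H, a change of 0.38 (SE 0.09, limma adjusted p = 0.0343). Only 1 of its 4 probe sets was called, and the others changed by 0.11 to 0.29. The called probe set has a name ending in _s_at, which marks possible cross-matching, and without such probe sets the gene had an adjusted p of 0.693. The call was also lost without any 1 array of B140P (0.0624 to 0.146), without B140H B (0.0948) or C (0.0831), without B117H A (0.0544) or B (0.0537), and without B117P C (0.0522).

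In ATP synthase, Atp5pb measured 14414, 14406 and 13118 intensity units in B140P and 10066, 10880 and 10415 in B140H. It measured 10123, 11856 and 10624 in B117P and 11506, 10872 and 10999 in B117H, so B140P stood above the other 3 lines, whose arrays overlapped. The change in B140H was -0.42 (SE 0.09, limma adjusted p = 0.0166), and the second probe set changed by -0.47 (adjusted p = 0.0374). The call was lost without B140P A (adjusted p = 0.0776), B140P B (0.0807) or B140H A (0.0620). The F1 genes changed by 0.01 to 0.11 in this pair. By limma 0 were called, and 0 had an unadjusted p under 0.05.

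**Figure D2:**
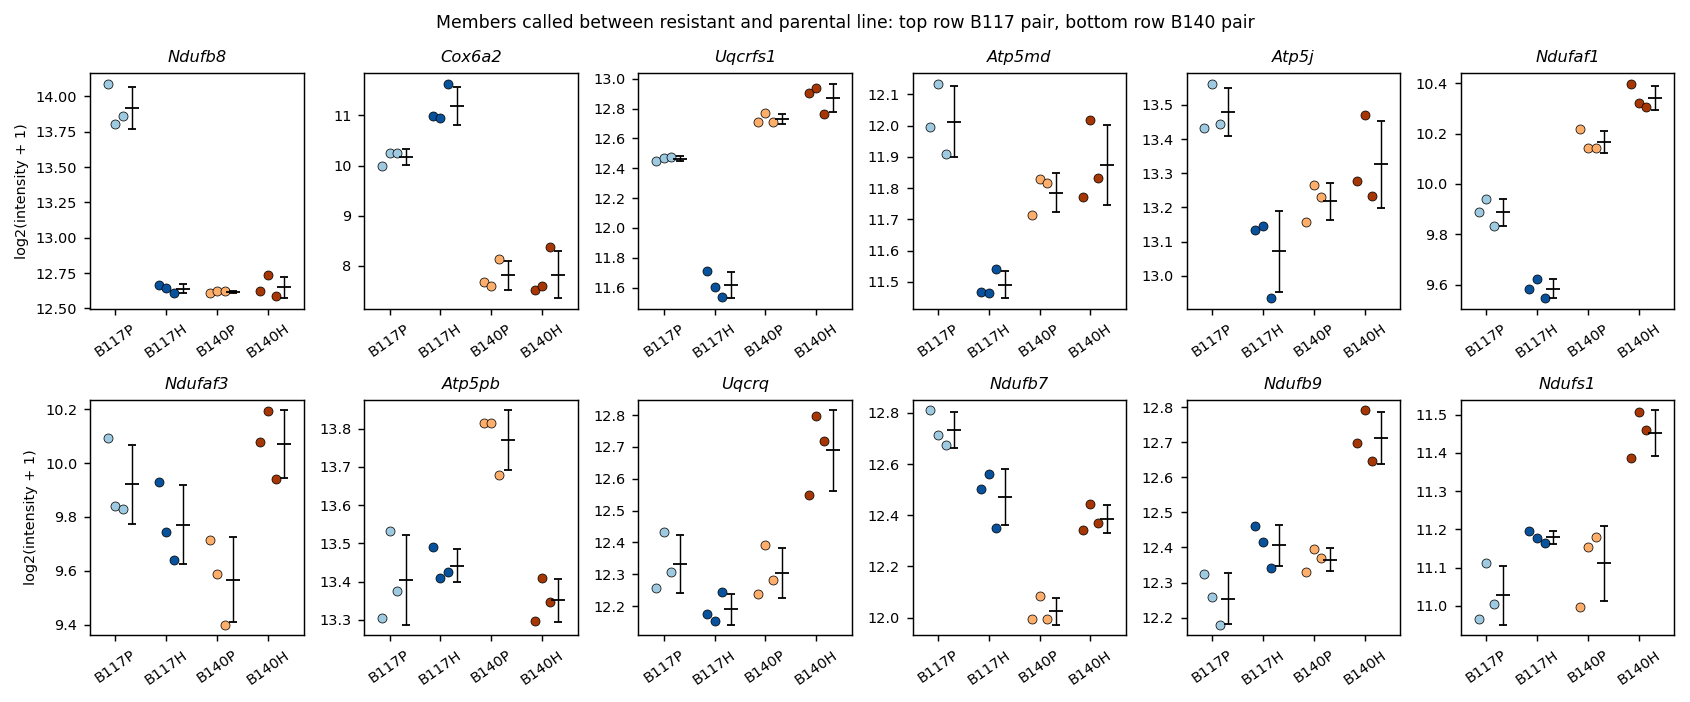
Log2(intensity + 1) of the 12 genes called in a resistant line, with 1 point per array, and the mean and SD (n = 3) beside the points; the top row holds the B117 calls and the bottom row the B140 calls, and each panel has its own vertical scale. Ndufb8 is high in B117P alone, Uqcrfs1 is lowest in B117H, and Atp5pb is highest in B140P.

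The difference between the lineages was tested directly, as the B140 change minus the B117 change. Of the members, 8 were called higher and 1 lower, against 4.91% and 5.51% of all genes, or 10.4% in either direction. The differences were 1.31 for Ndufb8 (SE 0.13, limma adjusted p = 5.78e-05), 0.99 for Uqcrfs1 (SE 0.12, adjusted p = 0.000280), 0.62 for Ndufb7 (adjusted p = 0.00745) and 0.61 for Atp5md (adjusted p = 0.0138). Those of Ndufaf3 (0.65), Uqcrq (0.53), Atp5j (0.52), Ndufaf1 (0.48) and Atp5pb (-0.46) were also called. Cox6a2 differed by -1.01 (limma adjusted p = 0.0975) and was not. The Uqcrq difference was called in 1 of its 4 probe sets. It was 0.20 (limma adjusted p = 0.861) without _s_at and _x_at probe sets and 0.19 (0.535) with its probe sets averaged. The calls of Ndufb8, Uqcrfs1, Atp5md and Ndufb7 held without any single array, while those of Uqcrq, Atp5j, Ndufaf1, Ndufaf3 and Atp5pb were each lost without at least 1 (highest adjusted p = 0.0766, 0.0992, 0.0557, 0.0905 and 0.119). Without B140P C, 4 members were called higher, and without B117H B, B117H C or B140P B, 5 were. The Atp5pb call was lost without any 1 array of B117H or B140P, without B117P A or C, or without B140H A or C (adjusted p = 0.0575 to 0.119), and 0 members were then called lower by limma, except that 1 was without B140H C.

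In the average of both pairs, Ndufb8 (-0.62) and Uqcrfs1 (-0.35) were called lower and Ndufb9 (0.25) and Ndufs1 (0.25) higher, 2 members in each direction. Of all genes, 3.69% were called higher and 4.17% lower in this average, 7.86% together. The changes of Ndufb9 in B117H and B140H were 0.15 and 0.35, and those of Ndufs1 were 0.15 and 0.34. Their adjusted p-values by limma were 0.0261 and 0.0326. The Ndufb9 call was lost without B117H A (0.0737), B117H B (0.0646), B117P B (0.0546), B117P C (0.0731) or any B140P array (0.0586 to 0.0688). The Ndufs1 call was lost without any B117H (0.0674 to 0.0788) or B140P array (0.0521 to 0.0905), or without B117P A (0.0648), B117P C (0.0787) or B140H C (0.0595). Without B117H A, B117H B, B117P C or any B140P array, 0 members were called higher, and without B140H C, B117H C or B117P A 1 was.

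A reference gene of each complex was also read in every line. Sdha, the flavoprotein of complex II, measured 4073, 4078 and 3785 intensity units in B117P and 3899, 4000 and 4149 in B117H, and 4493, 5038 and 4875 in B140P and 4654, 5370 and 5180 in B140H. Uqcrc1, a core protein of complex III, measured 6703, 5466 and 6117 in B117P, 7267, 7143 and 6266 in B117H, 6956, 7220 and 6790 in B140P and 7919, 9059 and 7017 in B140H. Arrays of resistant and parental lines overlapped for both genes in both pairs. Cox4i1, the ubiquitous isoform of a complex IV subunit, measured 13061, 13956 and 13259 in B117P, 13898, 14414 and 14662 in B117H, 15692, 16024 and 16238 in B140P and 16316, 17430 and 16307 in B140H. Atp5b, the catalytic beta subunit of ATP synthase, measured 15496, 12040 and 14204 in B117P, 16698, 15312 and 14698 in B117H, 16449, 16679 and 15626 in B140P and 17862, 18313 and 16511 in B140H. The Cox4i1 arrays of B140H lay above those of B140P, and arrays of the compared lines overlapped for Cox4i1 in the B117 pair and for Atp5b in both pairs.

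Sdha, Uqcrc1, Cycs, Cox4i1 and Atp5b were not called in either resistant line. Their 95% intervals in B117H were -0.18 to 0.21 for Sdha, -0.07 to 0.43 for Uqcrc1, -0.08 to 0.26 for Cox4i1 and -0.06 to 0.39 for Atp5b, in log2 units. In B140H they were -0.12 to 0.27, -0.06 to 0.43, -0.11 to 0.23 and -0.11 to 0.34. Cycs, which encodes the cytochrome c that carries electrons to complex IV and activates caspases once released, measured 13745, 18393 and 18667 in B117P and 14142, 14751 and 16305 in B117H. It measured 13826, 16463 and 16706 in B140P and 16072, 15724 and 19813 in B140H, with overlap in both pairs. A dimmer one of its 4 probe sets rose in B140H by 0.44 (limma adjusted p = 0.0253), while the brightest changed by 0.13.

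Genes that build or feed the chain were examined from lists of known function, chosen, like the members, with earlier results of these data known. Of 38 other assembly factors, 0 rose by limma and 7 fell in B117H, against 4.73% and 4.68% of all genes. The median change of these factors was -0.06, and 4 above 0 and 10 below 0 had an unadjusted p under 0.05. The share of all genes at that unadjusted threshold was not split by direction. Cox15, which makes haem A for complex IV, fell by 1.45, Cox18, which inserts a complex IV subunit into the membrane, by 0.88, Timmdc1, a complex I assembly factor, by 0.78 and Nubpl, which serves the iron-sulphur clusters of complex I, by 0.73. In B140H, 2 rose and 1 fell, against 2.81% and 3.75% of all genes. Coa3 and Cox19, both factors of complex IV assembly, rose by 0.88 and 0.72, and the insertase gene Oxa1l fell by 0.60. The 7 calls of the genes named here held without any single array of their own pair. The difference between lineages was called for 9 factors upward and 2 downward, against 4.91% and 5.51% of all genes.

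Of 13 other proteins of the chain, 1 fell in each resistant line and 0 rose by limma, while 2 in B117H and 3 in B140H had an estimate above 0 with an unadjusted p under 0.05. Of all genes, 4.73% were called higher and 4.68% lower in B117H, and 2.81% higher and 3.75% lower in B140H. Higd2a, a factor of complex IV and its supercomplexes, measured 4108, 4188 and 4293 intensity units in B117P and 2222, 2349 and 2180 in B117H, a change of -0.90 (limma adjusted p = 3.21e-05). Etfa, which passes electrons from fatty acid oxidation to the chain, fell in B140H by 0.39, a call lost without 9 of the arrays (highest adjusted p = 0.187).

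Of 15 genes of the tricarboxylic acid cycle, in B117H 2 rose and 0 fell by limma (1 below 0 had an unadjusted p under 0.05). In B140H 1 of these genes rose and 3 fell. The shares of all genes, here and for the regulators below, were 4.73% higher and 4.68% lower in B117H. In B140H they were 2.81% and 3.75%. Fh1, which encodes fumarase, rose by 0.40 in both lines. Dlst rose by 0.32 in B117H, and Idh3a, Dlat and Sucla2 fell in B140H by 0.58, 0.55 and 0.33. The Dlat call held without any single array, while those of Fh1 (highest adjusted p = 0.0831 in B117H and 0.109 in B140H), Dlst (0.163), Idh3a (0.122) and Sucla2 (0.156) were each lost without several arrays of their pair. Of 20 regulators of mitochondrial biogenesis and of mitochondrial DNA, in B117H 1 rose and 2 fell. In B140H 0 rose by limma (1 above 0 had an unadjusted p under 0.05) and 1 fell. These were Yy1 (0.45), the mitochondrial helicase gene Twnk (-1.72) and the polymerase subunit gene Polg2 (-0.42) in B117H, and Gabpb2 (-0.77), a subunit of GABP, in B140H. The Yy1 and Polg2 calls were lost without B117P A or B and B117H C, among others (highest adjusted p = 0.0908 and 0.111). Of 26 listed genes encoded in mitochondrial DNA, 1 could be measured, ND5, which was not called in either resistant line (-0.05 and -0.24).

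B140P was compared with B117P to see how far the parental lines differed at the outset. These lines differ in origin and also in their markers, so the comparison describes 2 lines and not a treatment. In B140P, Cox7a2l, which joins complexes III and IV into supercomplexes, was 2.01-fold higher, and Atp5j2 and Atp5l, membrane subunits of ATP synthase, were 1.64-fold and 1.5-fold higher. The complex II anchors went opposite ways: Sdhd was 1.62-fold higher and Sdhc 1.49-fold lower. Ndufb8, Ndufs5 and Ndufb7, accessory subunits of the complex I membrane arm, were 2.46-fold, 1.68-fold and 1.63-fold lower, and the muscle isoform Cox6a2 was 5.13-fold lower.

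By limma, 12 members were called higher and 8 lower, against 12% and 11.8% of all genes. The 20 calls are 22.0% of the members, and 23.8% of all genes were called. The median difference was 0.08, against 0.00 over all genes. All B140P arrays exceeded all B117P arrays for 31 members (34.1%, against 19.9% of all genes), and all were below for 15 (16.5%, against 18.7%). The letters paired these lines as well. With the letter as a replicate block in the fit of all 12 arrays, 20 members were called higher and 12 lower, against 28.2% of all genes called. Without B117P C or B140P B, 5 members were called higher, without B140P C 6, without B140P A 7 and without B117P A 8. The calls of Cox6a2, Cox7a2l, Ndufb8, Ndufb7, Ndufs5, Atp5j2, Sdhd and Atp5l held under every alternative run.

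Among the genes higher in B140P, Cox7a2l measured 2025, 2329 and 1919 intensity units in B117P and 4053, 4158 and 4379 in B140P. It measured 2035, 2127 and 2444 in B117H and 4089, 4239 and 4042 in B140H, so the arrays of each resistant line overlapped those of its parent. The difference was 1.01 (SE 0.10, limma adjusted p = 8.08e-06), and all 3 of its probe sets were called, at 0.94 to 1.02. Atp5j2 measured 9687, 11318 and 10517 in B117P and 16501, 17827 and 17196 in B140P, a difference of 0.71 (SE 0.09, limma adjusted p = 0.000108), again called by all 3 probe sets. Sdhd measured 4321, 3368 and 3811 in B117P, 4351, 3891 and 3382 in B117H, 6511, 6124 and 5951 in B140P and 5099, 5116 and 4408 in B140H. Its parental difference was 0.70 (SE 0.12, limma adjusted p = 0.000872). Its second probe set differed by 0.44 and was not called (adjusted p = 0.253). Ndufv1 and Ndufv2, core subunits at the NADH site, were also called higher, by 0.37 and 0.29, each in 1 of its 3 probe sets. Both calls were lost without B117P B or C or B140P B or C (0.0700 to 0.128 for Ndufv1 and 0.0593 to 0.105 for Ndufv2), that of Ndufv2 without B140P A (0.0555), and that of Ndufv1 with only the arrays of the parental lines (0.0604). The 5 F1 genes of ATP synthase were estimated 0.22 to 0.26 higher. By limma 0 of them were called, and 3 had an unadjusted p under 0.05. With the letter as a block 1 was called, Atp5e (0.26, adjusted p = 0.0401).

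Among the genes lower in B140P, Ndufs5 measured 4642, 5686 and 5286 intensity units in B117P, 4927, 5222 and 4516 in B117H, 2684, 3330 and 3289 in B140P and 3634, 4102 and 4353 in B140H. Its difference was -0.75 (SE 0.12, limma adjusted p = 0.000455). Ndufb7 measured 7180, 6717 and 6542 in B117P and 5797, 6046 and 5226 in B117H, against the B140 values above, a difference of -0.71 (SE 0.09, limma adjusted p = 5.76e-05). In both genes, arrays of the parental lines did not overlap. The Ndufb8 difference of -1.30 (SE 0.09, limma adjusted p = 3.10e-07) rests on the same high B117P arrays as its change in B117H. The Sdhc difference of -0.57 (limma adjusted p = 0.00563) was not seen in its second probe set (-0.16, adjusted p = 0.485). Ndufa12, called at -0.43, was called lower by 3 of its 4 probe sets. It was at 0.09 (limma adjusted p = 0.811) when represented by a probe set whose name does not end in _s_at or _x_at.

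The other lists also held genes called between the parental lines, where 12% of all genes were called higher and 11.8% lower. Of the 15 genes of the tricarboxylic acid cycle, 9 were higher in B140P and 0 lower by limma (0 below 0 had an unadjusted p under 0.05), with a median of 0.46, led by Sucla2 (1.37), Dlat (0.82), Idh3a (0.73) and Ogdh (0.72). Of the 38 other assembly factors, 11 were higher and 6 lower, with Lrpprc, which stabilises mitochondrial messenger RNA, at 1.12 and Cox15 at -1.13. Of the 13 other chain proteins, 4 were higher and 1 lower. Of the 20 biogenesis regulators, 5 were higher and 4 lower, with the mitochondrial DNA polymerase gene Polg at 1.04 and Twnk at -1.28. ND5 was higher by 0.51 (limma adjusted p = 0.0119), a call lost without B140P C (0.0645).

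Complex IV has isoforms that are mainly found in heart and skeletal muscle, and 2 of these separated the lineages. Cox6a2 was at log2 levels of 10.17 ± 0.16 (SD, n = 3) in B117P, 11.19 ± 0.38 in B117H, 7.81 ± 0.29 in B140P and 7.82 ± 0.47 in B140H. Cox7a1 was at 8.18 ± 0.33, 8.89 ± 0.05, 6.91 ± 0.63 and 6.94 ± 0.70. In Cox7a1 the parental difference of -1.27 was called (limma adjusted p = 0.0158), and this call was lost without B117P B (adjusted p = 0.0749), B140P B (0.0782) or B140P C (0.0703). Its change in B117H, 0.71, was not called (adjusted p = 0.326). The A arrays of both B140 lines were the high ones for Cox7a1, at 197 and 214 intensity units against 88.7 to 96.8 on B and C. The other tissue isoforms, Cox4i2, Cox6b2, Cox7b2, Cox8b, Cox8c and Ndufa4l2, were called in no comparison.

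Markers of other cell types were read beside these isoforms. Of 5 skeletal muscle markers, 2 lay above the median of all probe sets in every line, and Ckm, which encodes muscle creatine kinase, averaged 9.99 in B117P, 10.20 in B117H, 7.15 in B140P and 7.34 in B140H on the log2 scale. Acta1 lay between 6.96 and 7.18 in all lines, and Myh4, Myl1 and Tnnt3 between 5.12 and 5.61. Summed over the 5 markers, arrays ran from 1138 to 1377 intensity units in B117P, 1273 to 1612 in B117H, 377 to 397 in B140P and 396 to 471 in B140H. Ckm, with a log2 difference of -2.84 in B140P (limma adjusted p = 8.34e-08), was the 1 muscle marker called between the parental lines, and in either resistant line 0 were called by limma and 0 had an unadjusted p under 0.05. The part of these markers in the isoform levels was not tested.

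**Figure D3:**
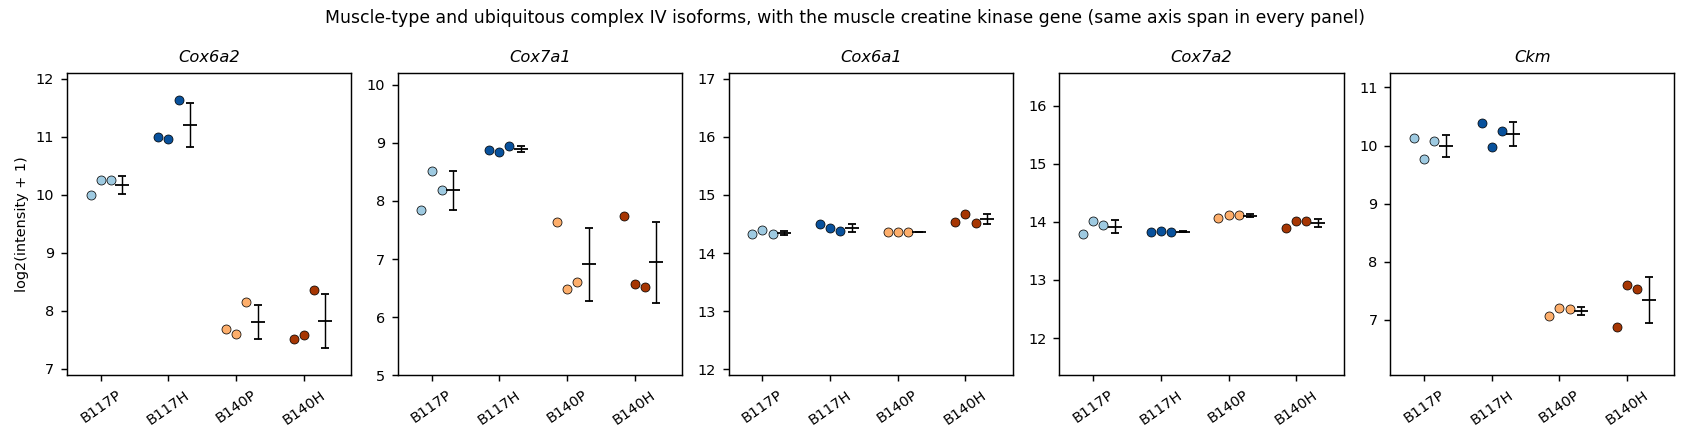
Log2(intensity + 1) per array, with mean and SD (n = 3), of the muscle isoforms Cox6a2 and Cox7a1, the ubiquitous isoforms Cox6a1 and Cox7a2, and the muscle creatine kinase gene Ckm; all panels span the same number of log2 units. Cox6a2 and Ckm are about 10 in B117P and below 8 in B140P, while the ubiquitous isoforms stay level across the lines.

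The labelled cell type was checked with markers of blood cells. Of 10 myeloid markers, 10 lay above the median of all probe sets in both B117 lines, 8 in B140P and 9 in B140H. Their sum per array was 74991 to 88511 intensity units in B117P, 59494 to 61830 in B117H, 30907 to 32735 in B140P and 27637 to 29035 in B140H. Of these, 8 were lower in B140P than in B117P, Elane, Lyz2, Prtn3 and Ctsg fell in B117H (4 genes), and Mpo alone of the 10 fell in B140H. Of all genes, 11.8% were called lower between the parental lines, 4.68% in B117H and 3.75% in B140H. The Ctsg call was lost without B117P B (adjusted p = 0.0521) or C (0.0572). Of 4 B cell markers, 1 lay above that median in both B117 lines and 4 in both B140 lines. The sums of these markers were 374 to 451 in B117P, 339 to 357 in B117H, 2757 to 3443 in B140P and 4075 to 5015 in B140H. Of these, 3 (Cd79a, Cd79b and Ebf1) were higher in B140P. Cd79b fell in B117H by 0.75, a call lost without any array of that pair but B117H C (0.0705 to 0.138). Of 4 erythroid, 4 T cell and 5 fibroblast markers, 0 were called by limma in either resistant line or between the parental lines. At an unadjusted p under 0.05 there were 0 in B117H, 1 erythroid and 1 T cell marker in B140H and 1 fibroblast marker between the parents. Their sums per array lay between 423 and 698 in all lines. What part these shifts in cell markers have in the members' differences was not tested.

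Several called members lie among neighbours that moved the same way. The 10 measured genes on either side that are not members were taken for each gene, in the gene order of GRCm38.p6, a description chosen after the data were seen. Of the 20 neighbours of Ndufb8 on chromosome 19, 10 were called lower in B117H, against 4.68% of all genes, and their median change was -0.53. The same neighbours had a median of 0.01 in B140H and of -0.36 between the parental lines, where 10 were called lower, against 11.8% of all genes. Cox15, Ndufb8, Twnk and Atp5md, all called lower in B117H, hold places 467, 481, 487 and 531 among the 609 measured genes of that chromosome. Pprc1, a coactivator gene at place 505, changed by -0.52 (limma adjusted p = 0.0687). Cox15 measured 1906, 2104 and 2030 intensity units in B117P and 646, 814 and 749 in B117H, and Twnk measured 2696, 1351 and 1587 against 560, 593 and 485. As for Ndufb8, B117P was the highest of the 4 lines for both.

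On chromosome 16 all 3 members, Ndufb4, Atp5j and Atp5o, were estimated below 0 in B117H. There, 21.0% of the other genes were called lower, against 4.68% of all genes. On chromosome 13, which holds Uqcrfs1, 21.7% of the other genes were called lower. The 20 neighbours of Uqcrfs1 itself had a median of -0.06 with 5 called lower, far from its own -0.85. In B140H, 7 of the 20 neighbours of Atp5pb on chromosome 3 and 6 of those of Sdhd on chromosome 9 were called lower. Their medians were -0.06 and -0.03, and 3.75% of all genes were called lower. Of the other genes on these chromosomes, 11.2% on chromosome 3 and 13.5% on chromosome 9 were called lower. For Atp5j2 on chromosome 5, 12 neighbours were called higher in B140P than in B117P, with a median of 0.89. In that comparison 12% of all genes were called higher and 11.8% lower. Between the parental lines the neighbours of Cox7a2l had a median of 0.02, with 4 called higher and 4 lower, and those of Cox6a2 had a median of -0.14, with 6 called lower. The neighbours of the genes that rose in B140H had medians of 0.05 to 0.16. Whether these stretches bear on the members' changes was not tested.

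**Figure D4:**
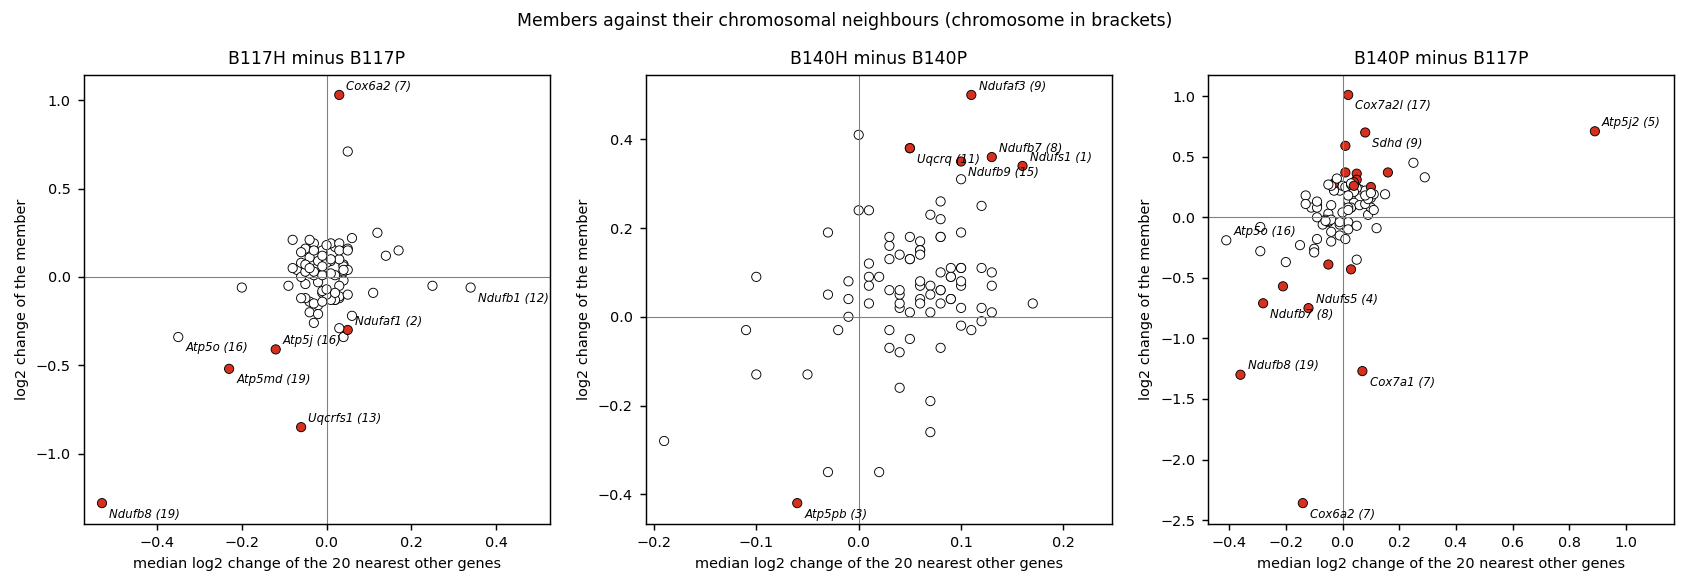
Log2 change of each gene on the vertical axis against the median log2 change of its 20 nearest measured genes outside the pathway on the horizontal axis, for the 3 comparisons; filled points had a limma adjusted p under 0.05. Ndufb8 lies at -1.28 with neighbours at -0.53 in B117H, and Atp5j2 at 0.71 with neighbours at 0.89 between the parental lines. Most other genes have neighbours near 0. Both scales differ between the panels.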

How the data were processed

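The deposited values are probe-set intensities on a linear scale, made with RMA per the submitters' processing notes, which give no version; its settings and the genome build were not given in the sources used here. Per the labels' protocols, RNA from each sample was amplified and labelled with biotin before hybridisation, 1 array per sample. The table holds 45101 probe sets, of which 64 controls were left out. Of the 45037 tested, the platform annotation gives 34945 a single symbol, 932 several and 9160 none.

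Values were taken to log2(intensity + 1). limma 3.58.1 (lmFit, contrasts.fit, eBayes, in R 4.3.3) fitted the 12 arrays with a coefficient per line. Two-sided p-values were adjusted by Benjamini-Hochberg over all 45037 probe sets and called under 0.05. All p-values in the text come from this fit or from its stated alternatives. Fold changes are on the log2(intensity + 1) scale, and a change is that of the representative probe set unless another is named. Members had 183 probe sets with 1 symbol, and 52 members had several.

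The members and gene lists were chosen with earlier results of these data known. Array values are given for up to 8 called members per comparison with the largest changes and no overlap, 5 of the parental comparison and 1 reference gene per complex; up to 4 called genes of another list are named per comparison. Further genes named, among them the genes of the neighbour analysis, the markers and those whose calls depended on an alternative, were chosen after their values were seen, as were the neighbour analysis itself and the count without array B140H B.

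Letters were taken to pair 2 lines where every letter's deviations correlated above 0.1 over all probe sets. This held for B140P with B140H (r = 0.587, 0.36 and 0.56 for A, B and C) and for B117P with B140P (0.499, 0.131 and 0.414). It did not hold for B117P with B117H (0.555, 0.0278 and 0.392) or with B140H (0.483, -0.0432 and 0.355). Among pairs of lines not compared here, it also held for B117H with B140P (0.567, 0.367 and 0.493). The same was true of B117H with B140H (0.455, 0.349 and 0.532). The alternatives run were arrays centred on their medians, brighter probe sets only, a gene's probe sets averaged, no pseudocount, a pseudocount of 16, only the arrays compared, a further quantile normalization, the letter as a block, no probe sets ending in _s_at or _x_at, and leaving out arrays.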

Additional observations from a re-analysis of the deposited data

Results flagged for a closer look

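For 9 genes the change in B140H minus the change in B117H was called in the limma test of that difference over all probe sets. These are 9.89% of the members, near the 10.4% of all genes called. In complex I these were Ndufb8 (1.31, adjusted p = 5.78e-05), Ndufb7 (0.62, 0.00745), Ndufaf3 (0.65, 0.0325) and Ndufaf1 (0.48, 0.0190). In complex III they were Uqcrfs1 (0.99, adjusted p = 0.000280) and Uqcrq (0.53, 0.0283), the latter in 1 of its 4 probe sets. Without _s_at and _x_at probe sets the Uqcrq difference was 0.20 (limma adjusted p = 0.861). In ATP synthase the genes called were Atp5md (0.61, adjusted p = 0.0138), Atp5j (0.52, 0.0370) and Atp5pb (-0.46, 0.0464). The members' own changes behind these values are -1.28 and 0.03 for Ndufb8 and -0.85 and 0.14 for Uqcrfs1, in B117H and B140H. With 3 arrays per line, no single array was tested as an outlier.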

How the results depend on the processing

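Of 354 alternatives for the member counts and medians, 267 stayed within 1.5 times the count or within 1 SD between arrays, and every median stayed within that SD. Of 45 calls, 13 held under all alternatives: 2 of 6 in B117H, 0 of 6 in B140H, 1 of 4 in the average, 2 of 9 in the difference and 8 of 20 between the parental lines. With only the arrays compared, 2 members were higher in B117H, and 0 were higher and 0 lower in B140H. With arrays centred on their medians, 1 was higher and 2 lower in B140H and 1 higher in the average. With all probe sets of a gene averaged, 3 were lower in B140H, 4 were higher and 4 lower in the average, 3 were lower in the difference and 21 higher in B140P. After a further quantile normalization 2 were lower in B140H, with brighter probe sets only 19 were higher in B140P, and without _s_at and _x_at probe sets 0 were lower in the difference. The same omission turned Ndufa12 between the parental lines to 0.09, as another probe set then represented it. The letter as a replicate block was fitted on all 12 arrays. With it, 3 were lower in B140H, 5 higher in the average, 3 lower in the difference and 20 higher in B140P. The average and the difference use B117P and B117H, whose deviations did not correlate for letter B. The counts between these 2 lines became 1 higher and 6 lower. Leaving out an array, or all arrays of a letter, gave ranges of 0 to 1 higher and 2 to 5 lower in B117H, 0 to 6 and 0 to 2 in B140H, 0 to 2 and 1 to 3 in the average, 2 to 7 and 0 to 1 in the difference, and 4 to 17 and 4 to 9 between the parental lines. Signal limits the reading of Ndufb4, Cox6b2, Cox7b2 and Cox8b, below the median level of all probe sets.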
